A study of Arabidopsis thaliana with 6 samples.

Results

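Recognition of an intron begins at its ends. In eukaryotes the U1 small nuclear ribonucleoprotein (U1 snRNP), whose U1-70K protein is a core subunit, pairs with the 5′ splice site (donor). SF1 binds the branch point, and the U2AF heterodimer binds the 3′ splice site (acceptor), with U2AF65 on the pyrimidine tract and U2AF35 on the terminal AG. SR45 and SR45a are SR-related proteins that contact both groups, and PRP39 is a U1-associated protein. Arabidopsis carries paired genes for both U2AF subunits, and pre-mRNAs of many plant splicing factors are themselves alternatively spliced.

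The 9 genes described here were chosen by name for these roles. They are U2AF65A (AT4G36690), U2AF65B (AT1G60900), U2AF35A (AT1G27650), U2AF35B (AT5G42820), U1-70K (AT3G50670), PRP39A (AT1G04080), SF1 (AT5G51300), SR45 (AT1G16610) and SR45a (AT1G07350). They are 9 of the 33602 genes counted, and they hold 145 of the 233559 bins, the exonic or intronic gene segments on which alternative splicing (AS) was scored.

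Poly(A) RNA came from whole, imbibed wild-type Col-0 seeds of Arabidopsis thaliana, which had been harvested as 1 bulk of several plants, so replicates may share a seed lot. Every sample was first given 2 h of dark imbibition, a 20-min far-red pulse to lower the active phytochrome (Pfr) left from the mother plant, and 3 days of dark stratification at 5 °C. Then 20 min of red light (Rp) or a second far-red pulse (FRp) followed, with the harvest 12 h later and 3 biological replicates of each. The calculated share of phytochrome in the Pfr form was 0.87 for red and 0.03 for far-red light. The fluence rates, in µmol per square metre and second, were 0.05 for red and 42 for far-red. The comparison asks how a germination-inducing red pulse, read by phytochrome, altered the levels and splicing of these genes. Rp stands against FRp throughout, so a negative log2 fold change is a lower level after Rp.

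Gene totals ran from 24234421 to 32387080 read counts per library. Pairs of libraries given the same pulse correlated at 0.984 to 0.992 on log2 values, and pairs given different pulses at 0.819 to 0.861. All 8 stored-seed mRNAs used as markers were lower after Rp, by log2 fold changes of -4.36 (CRA1, a 12S globulin) to -2.18 (SESA1, a 2S albumin). Of the endosperm markers, EPR1 was lower (-2.08) and EXPA2, an expansin, was higher (3.69). In whole seeds, fewer cells of a type and less RNA per cell cannot be told apart. Scaling by TMM (trimmed mean of M values) sets the middle of the gene distribution near 0. Scaling by library totals alone moved the median of all genes from 0.02 to 0.45, so levels below are relative to that middle.

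Rp replicate 3 stood apart in how its reads lay along transcripts. Over 4545 genes with at least 5 introns and enough reads, the median ratio of junction reads in the first 2 introns to those in the last 2 was 0.50 in that library, against 0.199 and 0.179 in the other Rp libraries and 0.238 to 0.246 in the FRp libraries. Among the 6 of the 9 genes that could be scored, the ratio was 0.300 to 0.633 in Rp replicate 3. In PRP39A the first intron had 19, 9 and 160 junction reads in Rp replicates 1, 2 and 3, and the last had 446, 356 and 287. Values without that library are therefore given where it changes a result.

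**Figure D1:**
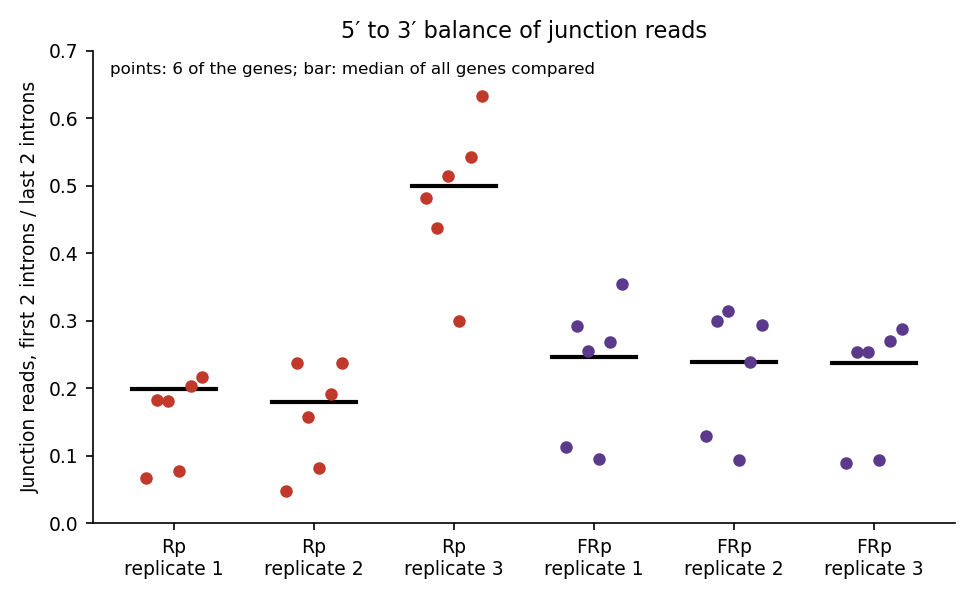
Ratio of junction reads in the first 2 introns to those in the last 2 introns (no unit), by library. Points are U2AF65A, U2AF65B, U1-70K, PRP39A, SR45 and SR45a, and the black bar is the median of 4545 genes. Rp replicate 3, with a median of 0.50, lies above the other 5 libraries.

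Total transcript levels of U2AF fell after Rp for 3 of its 4 genes. Levels are CPM (read counts scaled to a common library size) after TMM scaling, and a gene was called differentially expressed (DE) at an adjusted p under 0.05 with more than a 1.5-fold change (edgeR quasi-likelihood test, Benjamini-Hochberg adjustment over 16924 genes). In all, 4 of the 9 genes were called DE and all 4 were lower, where 55.6% of all tested genes were called DE and 26.8% were called lower. A share of 4 in 9 is no excess over the share of all genes called. The median log2 fold change of the 9 was -0.44, against 0.02 over all tested genes.

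U2AF35B (chr5:17169283-17171704), 1 of the paired genes for the small subunit that reads the acceptor AG, had the largest change of the 9. Its level was 104, 93.0 and 92.4 CPM in the 3 Rp libraries and 362, 269 and 314 CPM in the FRp libraries, a log2 fold change of -1.70 ± 0.12 (SE, n = 3 per group; edgeR adjusted p = 9.2e-08). U2AF35A (chr1:9614551-9616357), its paralogue, was at 112, 98.6 and 104 CPM after Rp and 239, 217 and 243 CPM after FRp, a log2 fold change of -1.15 ± 0.10 (n = 3 per group; edgeR adjusted p = 4.7e-07). In both genes every Rp library was under every FRp library. Both overlap a neighbour on the opposite strand, over 177 bases for U2AF35B (AT5G42810) and 356 for U2AF35A (AT1G27640). The use of strand in counting was not given in the sources used here, so reads in those stretches cannot be assigned.

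U2AF65A (chr4:17293947-17297761) encodes the large subunit that binds the pyrimidine tract. It had 149, 142 and 188 CPM after Rp and 353, 365 and 313 CPM after FRp, a log2 fold change of -1.10 ± 0.13 (n = 3 per group; edgeR adjusted p = 5.4e-06). Its paralogue U2AF65B (chr1:22423909-22428022) had 126, 117 and 119 CPM after Rp and 148, 150 and 132 CPM after FRp. The log2 fold change of U2AF65B was -0.25 ± 0.10 (n = 3 per group; edgeR adjusted p = 0.033), under the 1.5-fold limit, and the adjusted p ran from 0.025 to 0.107 when each library was left out in turn. The paralogue pairs share no exact 50-base run in their RefSeq exons.

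U1-70K (chr3:18826300-18829618) was the other gene called DE. It stood at 141, 116 and 150 CPM after Rp and 251, 247 and 221 CPM after FRp, a log2 fold change of -0.82 ± 0.12 (n = 3 per group; edgeR adjusted p = 3.2e-05). PRP39A (chr1:1051312-1056827), also of the U1 side, was at 154, 150 and 177 CPM after Rp and 208, 213 and 204 CPM after FRp. Its log2 fold change of -0.38 ± 0.10 passed the adjusted p (edgeR, 0.0042) but not the fold limit.

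SR45a (chr1:2257425-2260101) was at 64.7, 66.6 and 49.2 CPM after Rp and 83.4, 83.3 and 78.2 CPM after FRp, a log2 fold change of -0.44 ± 0.12 (edgeR adjusted p = 0.0040), again under the fold limit. SF1 (chr5:20848897-20852334) and SR45 (chr1:5675704-5678852) had overlapping groups. SF1 had 64.3, 62.9 and 73.1 CPM after Rp and 82.4, 72.1 and 78.9 CPM after FRp (log2 fold change -0.22 ± 0.10, edgeR adjusted p = 0.056). SR45 had 136, 133 and 134 CPM after Rp and 145, 129 and 150 CPM after FRp (-0.07 ± 0.09, edgeR adjusted p = 0.50).

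**Figure D2:**
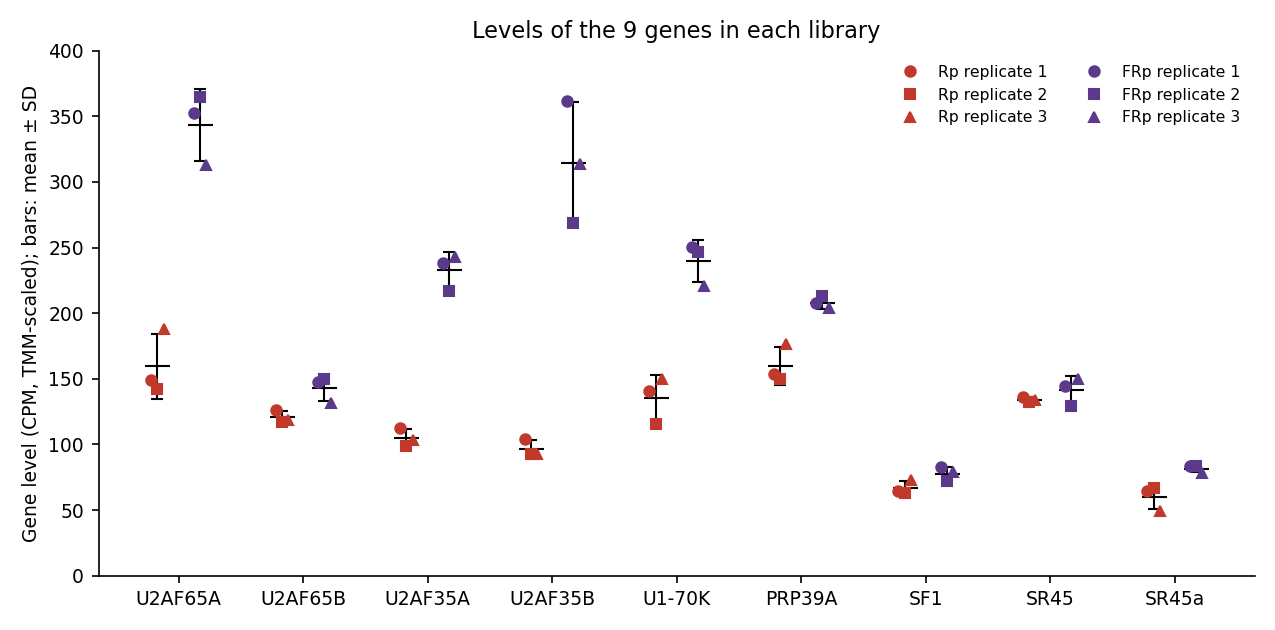
Level of each of the 9 genes in CPM (linear axis from 0), with 1 point per library and bars at the mean ± SD of 3. The 4 genes called DE, U2AF65A, U2AF35A, U2AF35B and U1-70K, have all Rp libraries below all FRp libraries, whereas SF1 and SR45 overlap.

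The calls for U2AF65A, U2AF35A and U2AF35B held in all 11 alternatives tried, whereas the call for U1-70K was lost with library totals in place of TMM (log2 fold change -0.39) and with a fold limit of 2. With library totals the signs of U2AF65B (0.18), PRP39A (0.05), SF1 (0.21) and SR45 (0.36) turned positive and SR45a stood at -0.014 (edgeR adjusted p = 0.92), so no direction is drawn for those 5.

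Per kilobase of effective length, 3 of the 4 U2AF genes stood highest after FRp, and after Rp they did not. After FRp the order was U2AF35B at 186 ± 27.4 CPM per kb (SD, n = 3), U2AF35A at 166 ± 9.93, U2AF65A at 147 ± 11.7, U1-70K at 96.0 ± 6.43, SR45 at 84.8 ± 6.41, PRP39A at 68.8 ± 1.56, U2AF65B at 68.6 ± 4.79, SR45a at 52.6 ± 1.90 and SF1 at 26.3 ± 1.77. Neighbours in the first 3 places, and PRP39A and U2AF65B, lay within their spread. After Rp, SR45 (80.6 ± 1.04 CPM per kb) led U2AF35A (74.6 ± 4.96) and U2AF65A (68.3 ± 10.6), and U2AF35B (57.0 ± 3.94) lay beside U2AF65B (57.9 ± 2.40), U1-70K (54.3 ± 7.05) and PRP39A (52.9 ± 4.82). SF1 was again lowest, at 22.6 ± 1.86 CPM per kb. Junction reads lay toward the 3′ end in each library, and effective length ran from 1405 bases (U2AF35A) to 3025 (PRP39A). The order between genes can therefore depend on their length, which was not tested. The opposite-strand overlaps of both U2AF35 genes apply here too.

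A list of 28 further genes of the U1 and U2 snRNPs and U2AF relatives, chosen by annotation, changed in both directions. Of the 28, 10 were called DE, 3 higher and 7 lower, and the median log2 fold change was -0.15. A share of 10 in 28 is no excess over the 55.6% of all tested genes called DE. Among 9 U1 genes, LUC7B fell from 110 ± 5.88 to 45.3 ± 3.93 CPM (SD, n = 3; log2 fold change -1.28) and LUC7RL by 0.65 on the log2 scale. Both are relatives of yeast Luc7, a U1 protein. U1A, which binds a stem-loop of U1 RNA, rose from 35.2 ± 4.59 to 58.8 ± 5.80 CPM (0.74). Among 17 U2 genes, both SF3B5 genes, for a small subunit of the branch-point-binding SF3b complex, rose (1.34 for AT3G23325 and 0.73 for AT4G14342), while SF3A2 and a copy of SF3A1, subunits of SF3a, fell by 0.80 and 0.89. The U2AF35-related gene AT1G10320 fell by 0.74. With library totals the split of the list became 8 higher and 1 lower, and that of all genes went from 4877 higher and 4536 lower to 7524 higher and 2568 lower. The 1 gene of the list still called lower was LUC7B.

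**Figure D3:**
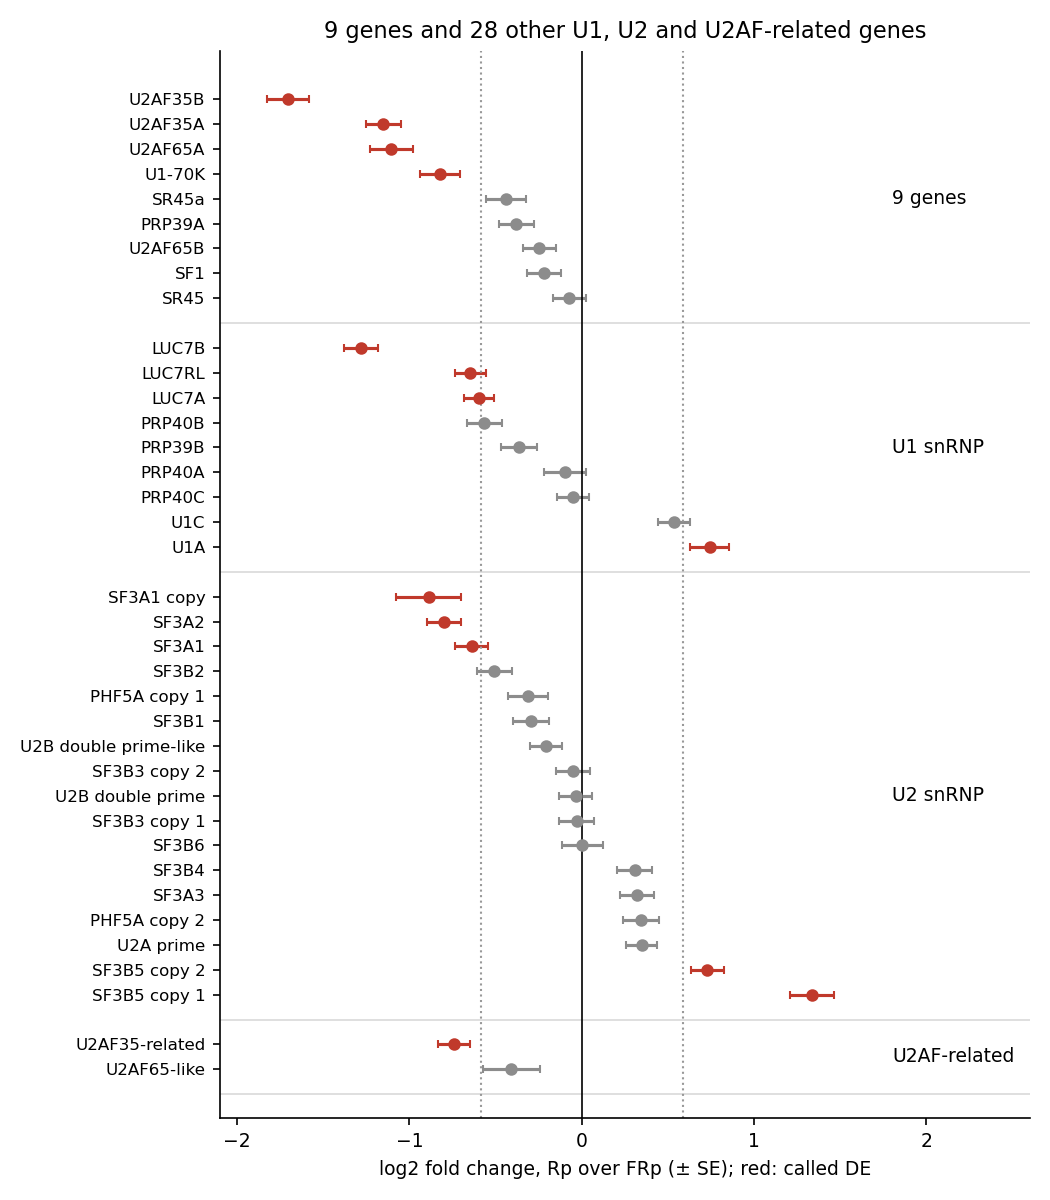
log2 fold change (Rp over FRp, ± SE) of the 9 genes and of 28 other genes of the U1 snRNP, the U2 snRNP and U2AF relatives. Red points were called DE, and dotted lines mark a 1.5-fold change. With TMM scaling all 9 genes lie left of 0 (U2AF65B, PRP39A, SF1 and SR45 turn positive with library totals), while the U1 and U2 lists spread to both sides.

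The genes whose levels followed U2AF65A most closely over the 6 libraries were AT2G11240, annotated as a pseudogene (Pearson r = 0.99996 on log2 CPM), ATM (AT3G48190, 0.9998) and SAC3A (AT2G39340, 0.9997). Likeness of this kind was common, since 2588 of 16923 genes had r over 0.95, and the points of all genes share the 2 treatment groups.

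AS was scored per bin as percent spliced in (PSI) or percent of intron retention (PIR), from reads that cross junctions and, for introns, reads that run across an exon-intron boundary. Of the 145 bins, 67 had no exclusion junction listed, 2 had no inclusion junction, 36 had too few reads and 40 could be tested. The threshold for a call was an adjusted p under 0.15 together with a pooled difference of more than 0.5 points (edgeR quasi-likelihood test of the interaction of pulse and read type over 28466 events). In the 9 genes 6 of 40 tested events were called, in U2AF65A, SF1 and SR45, where 2.46% of all tested events were called. Of the 40 events, 12 had an unadjusted p under 0.05. The largest of the 12 (edgeR unadjusted p = 0.046) ranked 3453 among all 28466 events. The share of such values over all events was thus smaller than 12 in 40. Events of 1 gene often share a junction, so neither the 12 nor the 6 are separate observations.

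Summed over all 71149 introns with both kinds of reads listed, unspliced reads made up less after Rp. Introns with many reads weigh most in such a sum. There were 1.05 to 1.22 boundary reads per 100 junction reads in the Rp libraries and 1.38 to 1.56 in the FRp libraries. An alternative chosen after seeing the data scaled inclusion and exclusion reads separately, each by its total over all tested events of every kind. It takes out a shift between those totals, not that of introns alone. With it 9 events of these genes and 973 in all were called. The split of all calls then changed from 289 with more and 410 with less inclusion after Rp to 594 and 379.

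The strongest event of the 9 genes lay in U2AF65A, where 1 donor is joined to either of 2 acceptors 173 bases apart. The gene is on the minus strand, so the bin, filed as an alternative donor, is an alternative acceptor when read along the transcript. The donor and both acceptors are shown because the choice between them carries the largest splicing change, with the intron's terminal GT or AG in capitals (TAIR10, read from RefSeq assembly TAIR10.1).
U2AF65A shared donor, chr4:17294684-17294713, minus strand: ggaaagtttgGTaagagacctcttaattgc
U2AF65A proximal acceptor, chr4:17294600-17294629, minus strand: gttttcttggttgtgctgttttacAGcctt
U2AF65A distal acceptor, chr4:17294427-17294456, minus strand: tttgttctttaactcttaaaatgcAGgtgc
Of the 20 bases before the AG, 14 were pyrimidines at the proximal and 13 at the distal acceptor, where the median of constitutive introns in the table was 13. In RefSeq 2 of 4 U2AF65A mRNAs use the distal acceptor, 1 the proximal one, and in 1 the intron is retained. The coding sequence ends at base 17294139 with the distal acceptor, but earlier on the transcript, at 17294422, with the proximal one. The lengths are close, at 1722 and 1656 coding bases in the mRNAs with the distal acceptor and 1698 in that with the proximal one.

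Use of the proximal acceptor fell by close to 33 points after Rp. Its PSI was 37.9, 37.3 and 42.4% in the Rp libraries and 71.8, 76.1 and 67.3% in the FRp libraries, with no overlap. The means were 39.2 ± 2.79% and 71.7 ± 4.45% (SD, n = 3), a difference of -32.5 points (edgeR adjusted p = 0.0015). Leaving out each library in turn gave -34.8 to -30.3 points with adjusted p up to 0.031, and the call held in 12 of 13 alternatives, the exception being limma on log2 ratios (adjusted p = 0.24).

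With TMM scaling of all libraries, only the proximal junction of the 3 outcomes at this donor did not overlap between the pulses. Reads of the proximal junction numbered 140, 117 and 120 after Rp and 319, 533 and 306 after FRp, which is 3.76 ± 0.45 and 15.4 ± 3.13 CPM (SD, n = 3) on the same TMM scale as the genes. The distal junction had 229, 197 and 163 reads after Rp and 125, 167 and 149 after FRp, or 5.91 ± 1.29 and 5.95 ± 0.25 CPM. Unspliced reads across the donor came to 1.35 ± 0.34 and 1.46 ± 0.13 CPM. The proximal junction was 4.11-fold higher after FRp, whereas the groups overlapped for the distal and the unspliced reads. Rp replicate 3 (4.42 CPM) decided the overlap of the distal junction. The other Rp libraries (6.71 and 6.60 CPM, mean 6.66) lay above every FRp library (5.74 to 6.23 CPM). With library totals in place of TMM the distal junction was 1.33-fold higher after Rp. By an exact two-sided permutation test p was 0.1 for the proximal junction, 1.0 for the distal one and 0.8 for unspliced reads, and 3 libraries against 3 cannot give less than 0.1.

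The other called bins of U2AF65A are retention measures that share these junctions. The 100-base intron up to the proximal acceptor had a PIR of 22.7, 27.1 and 38.6% after Rp and 11.8, 13.6 and 15% after FRp, a difference of 16 points (edgeR adjusted p = 0.090). That ratio sets unspliced reads against the proximal junction, which is the quantity that fell. As a share of all reads at the donor, unspliced reads were 8.4, 11.5 and 17.97% after Rp and 6.7, 5.7 and 7.0% after FRp. The call was lost without Rp replicate 3 (11.4 points, adjusted p = 0.33), without FRp replicate 1 (0.26) and without FRp replicate 2 (0.20). The 273-base intron up to the distal acceptor had a PIR of 29.1, 31.5 and 39.4% after Rp and 55.1, 60.7 and 56.1% after FRp (-24.0 points, edgeR adjusted p = 0.061). Its boundary reads include those of the proximal isoform, and the call was lost without Rp replicate 1 (0.24), Rp replicate 2 (0.16) or FRp replicate 2 (0.21). The other 5 tested bins of the gene had mean PIR of 0.22 to 2.47% and none was called.

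**Figure D4:**
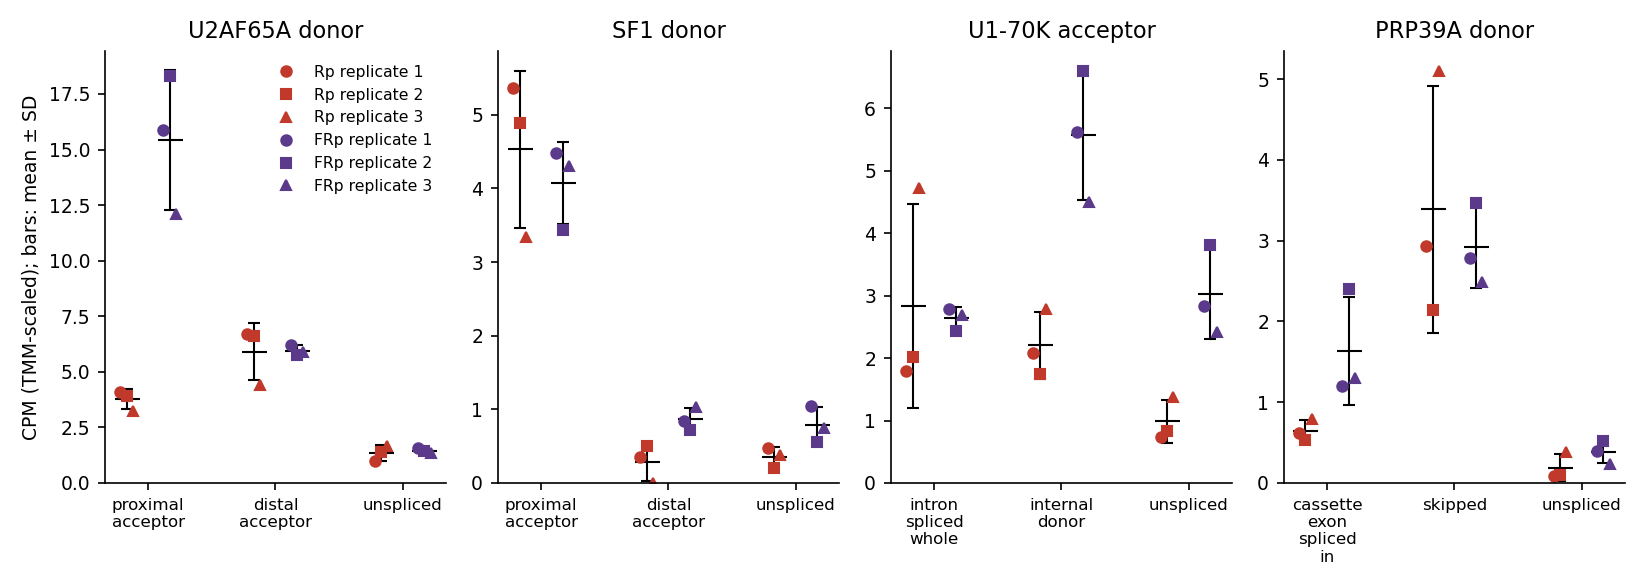
CPM of junction or unspliced reads (TMM-scaled, linear axes from 0) for each outcome at 1 splice site of U2AF65A, SF1, U1-70K and PRP39A, with 1 point per library and bars at the mean ± SD of 3. At the U2AF65A donor the proximal acceptor falls from 15.4 after FRp to 3.76 after Rp. The distal acceptor has means of 5.95 and 5.91, with Rp replicate 3 below and the other Rp libraries above all FRp libraries.

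U1-70K has a 909-base intron whose retention ends the coding sequence early in 1 of 2 RefSeq mRNAs (615 coding bases against 1284). Its 2 donors, 796 bases apart, and its acceptor are shown because reads divide among them, with the intron's terminal bases in capitals. The internal donor is in no RefSeq mRNA of the gene.
U1-70K distal donor, chr3:18828329-18828358, minus strand: aattaaacggGTaggttattctgagcattc
U1-70K internal donor, chr3:18827533-18827562, minus strand: caacataaagGTtgcctgccttatagagct
U1-70K acceptor, chr3:18827436-18827465, minus strand: aattgtcttcttctgaaacttctcAGgttc
PIR of the 909-base intron was 24.2, 24.1 and 20.4% after Rp and 41.4, 53.1 and 38.2% after FRp, with no overlap. The difference of -21.3 points did not pass (edgeR adjusted p = 0.16). Of 13 alternatives, 1 called it, that with inclusion and exclusion reads scaled separately (edgeR adjusted p = 0.071), which was chosen after seeing the data. This PIR sets boundary reads against the whole-intron junction alone and leaves out reads of the internal donor. As a share of all reads at the acceptor, unspliced reads were 15.9, 18.2 and 15.5% after Rp and 25.2, 29.7 and 25.1% after FRp.

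At the shared acceptor of U1-70K, every outcome other than splicing of the whole intron was lower after Rp. The internal donor, counted as the sum at the acceptor minus the whole-intron junction, had 71, 52 and 103 reads after Rp and 113, 192 and 114 after FRp, or 2.21 ± 0.54 and 5.58 ± 1.05 CPM. Unspliced reads across the acceptor were 25, 25 and 51 after Rp and 57, 111 and 61 after FRp, or 0.98 ± 0.35 and 3.02 ± 0.72 CPM. Neither of these overlapped between groups (exact two-sided permutation p = 0.1 each, the smallest possible). The whole-intron junction, which belongs to the longer coding frame, had 61, 60 and 174 reads after Rp and 56, 71 and 68 after FRp, or 2.84 ± 1.63 and 2.64 ± 0.18 CPM (exact permutation p = 1.0). Unspliced reads across the distal, upstream donor were 14, 13 and 38 after Rp and 22, 50 and 23 after FRp, fewer than the internal-donor reads in every library. On the CPM scale the groups overlapped (exact permutation p = 0.2), and without Rp replicate 3 (1.03 CPM) they did not. Rp replicate 3 decided the level of the whole-intron junction, since without it the Rp mean was 1.90 CPM, and the other Rp libraries (1.79 and 2.01 CPM) lay under every FRp library (2.44 to 2.79 CPM). At the acceptor the internal donor was the most used outcome in Rp replicate 1 and the whole-intron junction in the other Rp libraries. As shares of the reads at the acceptor, whole-intron splicing made up 38.9, 43.8 and 53.0% after Rp and 24.8, 18.98 and 27.98% after FRp. The 2 other tested introns of U1-70K had mean PIR of 0.09 to 0.44%.

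In PRP39A a 101-base exon is either included or skipped. The junction into it is in 1 of 5 RefSeq mRNAs and the junction out of it in 0, so RefSeq does not hold the exon with these ends. Its length leaves a remainder of 2 when divided by 3. The RefSeq mRNA with the junction into it has 2472 coding bases and ends its coding sequence at base 1056550, as do the mRNAs that skip it. It is printed here with the flanking AG and GT in capitals, as the segment whose inclusion differed most in this gene.
PRP39A cassette exon, chr1:1054283-1054387, plus strand: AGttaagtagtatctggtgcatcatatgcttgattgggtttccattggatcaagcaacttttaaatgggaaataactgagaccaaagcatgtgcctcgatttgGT
Its PSI was 13.4, 16.3 and 10.0% after Rp and 23.8, 34.4 and 28.8% after FRp, with no overlap. The difference of -15.7 points was not called (edgeR adjusted p = 0.18). Again 1 of 13 alternatives called it, the separate scaling of inclusion and exclusion reads chosen after seeing the data (edgeR adjusted p = 0.11). The junction into the exon had 21, 16 and 29 reads after Rp and 24, 70 and 33 after FRp, or 0.65 ± 0.13 and 1.63 ± 0.67 CPM. The skipping junction had 100, 64 and 188 reads after Rp and 56, 101 and 63 after FRp, or 3.39 ± 1.53 and 2.92 ± 0.50 CPM, with overlapping groups. Without Rp replicate 3 the skipping junction stood at 2.54 CPM after Rp. The 462-base intron that spans the exon had a PIR of 14.2, 21.95 and 15.7% after Rp and 27.3, 29.4 and 35.4% after FRp, which did not pass (edgeR adjusted p = 0.33) and shares the skipping junction.

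SF1, the branch point protein, carries its alternative intron in the 3′ UTR, beyond the end of the coding sequence at base 20849881, so its 3 RefSeq mRNAs have the same 2415 coding bases. A donor is joined to either of 2 acceptors 105 bases apart, shown with the AG in capitals because both SF1 calls rest on them.
SF1 proximal acceptor, chr5:20849260-20849289, minus strand: ttgttgacattgttaatttttttcAGgtgt
SF1 distal acceptor, chr5:20849155-20849184, minus strand: ttgctatgctgttgtgaaatatgcAGagat
Of the 20 bases before the AG, 14 were pyrimidines at the proximal and 10 at the distal acceptor. After Rp a larger share of spliced SF1 reads went to the proximal acceptor. Its PSI was 93.8, 90.7 and 100% after Rp and 84.1, 82.6 and 80.7% after FRp, a difference of 12.3 points (edgeR adjusted p = 0.095). The distal junction had 12, 15 and 0 reads after Rp and 17, 21 and 26 after FRp, and 0 of 123 reads in Rp replicate 3 allows a share of up to 2.44%, for counting error only. Without that library the difference was 9.77 points and was not called (adjusted p = 0.37), and leaving out any other single library except Rp replicate 2 also ended the call (adjusted p 0.17 to 0.22).

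Retention of the SF1 intron up to the proximal acceptor was lower after Rp. PIR was 12.6, 9.32 and 15.5% after Rp and 29.4, 30.1 and 28.3% after FRp, a difference of -16.8 points (edgeR adjusted p = 0.092) in the direction of the shift over all introns. The groups did not overlap, but leaving out any single library other than Rp replicate 3 raised the adjusted p to between 0.16 and 0.25. The proximal junction itself was at 4.53 ± 1.06 CPM after Rp and 4.08 ± 0.56 after FRp. Unspliced reads across the donor were at 0.35 ± 0.14 and 0.78 ± 0.25 CPM, and the distal junction was at 0.28 ± 0.26 and 0.87 ± 0.15 CPM. The U2AF65A proximal junction, the U1-70K internal donor and unspliced reads across its acceptor, the PRP39A exon and the SF1 distal and unspliced reads were each lower in every Rp library than in any FRp library, whereas unspliced reads of U2AF65A, of PRP39A and across the upstream donor of U1-70K overlapped. Without Rp replicate 3, unspliced reads of PRP39A (0.09 and 0.10 CPM after Rp, 0.24 to 0.52 after FRp) no longer overlapped. Neither did those across the upstream donor of U1-70K (0.41 and 0.44 against 0.91 to 1.72 CPM). The SF1 proximal junction then lay above every FRp library (5.36 and 4.89 against 3.44 to 4.48 CPM). These comparisons hold for TMM scaling. With library totals the proximal junction of SF1 was 1.497-fold, the whole-intron junction of U1-70K 1.46-fold and the skipping junction of PRP39A 1.57-fold higher after Rp. The share of junctions of all genes without overlap was not computed, and the total levels of U2AF65A and U1-70K were themselves lower after Rp.

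**Figure D5:**
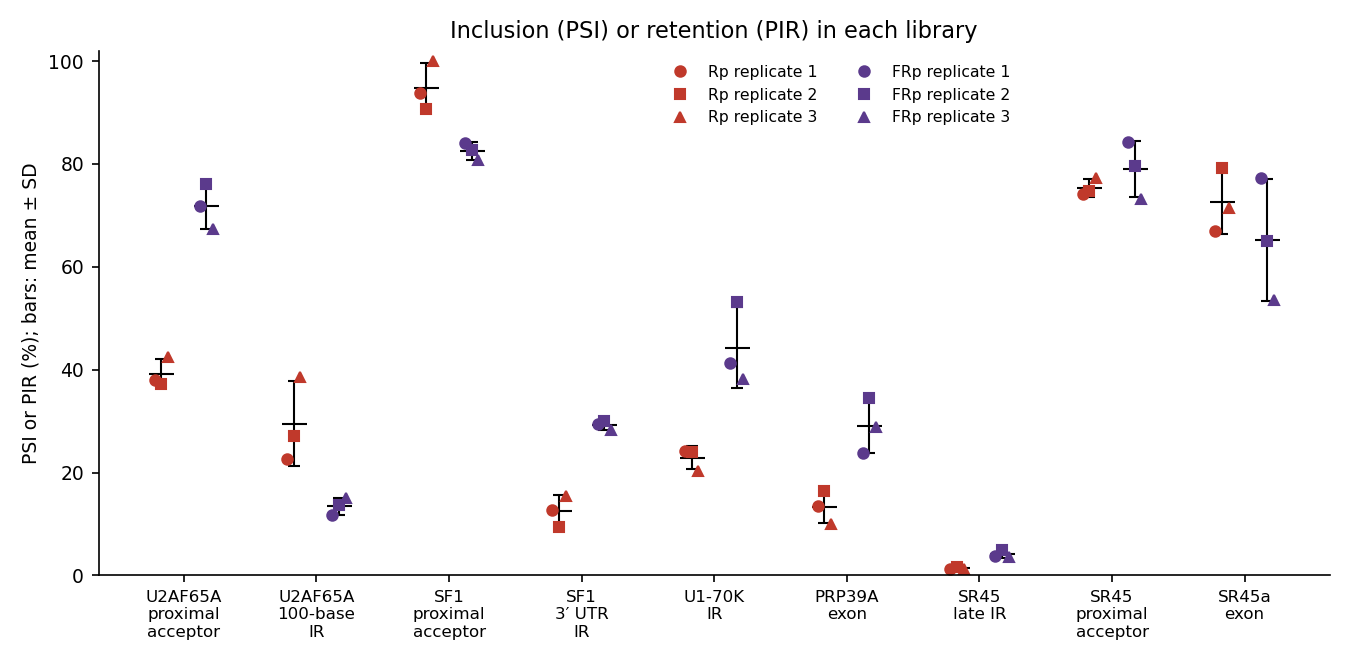
PSI or PIR in percent (IR, intron retention) for 9 bins of U2AF65A, SF1, U1-70K, PRP39A, SR45 and SR45a, with 1 point per library and bars at the mean ± SD of 3. The U2AF65A proximal acceptor separates the pulses most, from 71.7% after FRp to 39.2% after Rp, while the SR45 acceptors and the SR45a exon overlap.

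SR45, which links the U1 and U2AF sides, had a small called event in a 275-base intron near the 3′ end (chr1:5676007-5676281). In RefSeq 3 of 7 SR45 mRNAs splice this intron, and in the other 4 the coding sequence ends within its span. PIR was 1.20, 1.57 and 1.32% after Rp and 3.84, 4.86 and 3.50% after FRp, a difference of -2.70 points (edgeR adjusted p = 0.11). It rested on 11 to 14 boundary reads per Rp library and 23 to 33 per FRp library, and leaving out any library but FRp replicate 3 ended the call (adjusted p 0.16 to 0.31). The fall in PIR was in the direction of the fall over all introns.

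The SR45 event filed as an alternative acceptor, a choice between acceptors 21 bases apart that adds or drops a short stretch in frame, was not called. The added stretch is printed because it is the whole difference between the 2 forms in this region, and its own last AG is the distal acceptor.
SR45 stretch between the acceptors, chr1:5677356-5677376, minus strand: catctcctcaacggaaaacag
PSI of the proximal acceptor was 74.1, 74.7 and 77.3% after Rp and 84.2, 79.5 and 73.3% after FRp, with overlapping groups (edgeR adjusted p = 0.87). In RefSeq 4 of 7 mRNAs use the proximal and 3 the distal acceptor. SR45a holds a 96-base cassette exon (chr1:2258750-2258845), and the 1 of 6 RefSeq mRNAs that skips it has the longest coding sequence, 1149 bases against 390 to 702. Its PSI was 66.9, 79.1 and 71.4% after Rp and 77.2, 65.03 and 53.5% after FRp, and the groups overlapped (edgeR adjusted p = 0.82). The exon-including forms were the more used in all 6 libraries.

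The 2 U2AF35 genes each had 1 tested bin. The intron of U2AF35B had a PIR of 4.0, 3.28 and 2.69% after Rp and 1.747, 0.80 and 1.17% after FRp (edgeR adjusted p = 0.38), which did not overlap and was higher after Rp, against the shift of all introns, on 4 to 9 boundary reads per library. That of U2AF35A had 0.54, 0.94 and 1.78% after Rp and 0.30, 0.53 and 0.52% after FRp on 1 to 6 boundary reads (adjusted p = 0.63). U2AF65B had 4 tested introns and no call. Its lowest adjusted p was 0.43, for an intron with PIR of 2.67, 2.36 and 4.09% after Rp and 2.48, 0.72 and 1.53% after FRp. A 630-base intron of U2AF65B was often unspliced, with PIR of 28.7, 53.5 and 43.4% after Rp and 56.5, 66.2 and 29.2% after FRp. Its groups overlapped (edgeR adjusted p = 0.82). In SR45a the bin with the lowest p had 2, 2 and 1 boundary reads after Rp and 0 in each FRp library (adjusted p = 0.32). U2AF65B, U2AF35A and U2AF35B were tested for intron retention only, since their exonic bins had no exclusion junction listed. These include the U2AF35A bins filed as an alternative donor and an alternative acceptor. A counterpart of the U2AF65A acceptor switch could thus not be tested in these genes, and the difference between the paralogues was not tested.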

How the data were processed

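RNA-seq libraries (TruSeq RNA, paired-end) were made from 6 seed samples. Per the labels and the study's methods, the authors aligned reads with TopHat2 2.1.1 to TAIR10 and handled alignments with SAMtools 1.3. The deposited gene table holds raw counts per gene, and the deposited AS table holds counts of junction and boundary reads per bin and sample, with pooled PSI or PIR as fractions per treatment. Those fractions equalled recomputed ones within 0.0001 in all 76 bins of these genes that had exclusion reads. Where a boundary label named another bin than the row, the label's bin was used. The files' junctions read GT-AG in TAIR10.1 for all 78 junctions of the 9 genes.

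Genes needed a mean over 10 counts and a read density over 0.05 in either condition, and events needed such genes in both conditions, a mean of 10 junction reads and 5 reads on each side. Tests used edgeR 4.0.16 quasi-likelihood fits in R 4.3.3 over all genes or events of the 6 libraries, tested on simulated data first. Alternatives used DESeq2 1.42.0 and limma 3.58.1 (pseudocount 0.5), other filters and thresholds, a replicate block, and each library left out. Permutation tests used scipy. A p-value speaks only for these 3 libraries per pulse, and binomial or zero-count limits cover counting error only. In the main splicing fit the prior degrees of freedom were infinite. The variance used for each event was thus an estimate drawn from all events, not that event's own spread between libraries. Same-numbered libraries did not deviate together, so the main tests used no pairing, but this cannot show whether samples were collected in pairs.

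The 9 genes, the list of 28 and the markers were chosen with earlier results of these data known. Bins were named if called, if filed as alternative, or if lowest in p for their gene, and genes of the list if called DE, at most 5 per direction by fold.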

Additional observations from a re-analysis of the deposited data

How the results depend on the processing

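Of the 9 genes, 4 were called DE in the main test and 3 or 4 in every alternative. Scaling by library totals turned U2AF65B (log2 fold change 0.18), PRP39A (0.0502), SF1 (0.21) and SR45 (0.36) positive and left SR45a at -0.014. A fold limit of 2 left 5757 genes in all and 2 of the list of 28. Splicing calls depended more on the method. Against 699 events in all and 6 in these genes, limma on log2 ratios gave 138 and 0, and no junction minimum gave 249 and 1. An adjusted p under 0.05 gave 271 and 1, and the replicate block gave 210 and 1. With limma 9 of the 40 had an unadjusted p under 0.05, and the share over all events was not computed. Correlations of same-numbered libraries' deviations averaged -0.04 over genes and 0.01 over events, which gave no sign of pairing but cannot exclude it. The block changed no call among the 9 genes' levels. Leaving out each library gave 362 to 508 events in all and 1 to 4 in these genes. The U2AF65A acceptor event was called in 12 of 13 alternatives, the other 5 in 4 to 6 of 13. The cause was not tested for these changes. Depth limits the U2AF35A and U2AF35B introns, with under 10 boundary reads per library.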
